A study of Mus musculus with 12 samples.

Results

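Aminoacyl-tRNA synthetases join each amino acid to its transfer RNA, the step that sets which amino acid the ribosome inserts for a codon. Most animal cells carry a cytosolic and a mitochondrial set, both encoded in the nucleus, and the mitochondrial enzymes serve only the proteins made inside the organelle. Part of the cytosolic enzymes sit together in the multisynthetase complex around the non-catalytic proteins Aimp1, Aimp2 and Eef1e1. Many cytosolic synthetase genes are known targets of Atf4, the transcription factor that raises amino acid synthesis, uptake and charging when amino acids run short or translation initiation is restrained.

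The genes described here are every gene whose symbol is that of an aminoacyl-tRNA synthetase or of the scaffold proteins Aimp1 and Aimp2, 39 of the 11996 distinct genes listed in any of 3 tables. They were taken by symbol alone. They comprise 20 cytosolic enzymes, 17 mitochondrial enzymes (symbols ending in 2, other than Aimp2) and the 2 scaffold proteins. Gars1 and Kars1 each make both the cytosolic and the mitochondrial enzyme and are counted as cytosolic. All 39 were listed in the tables of PTH and of PDE8A KO and 38 in the table of PF431396, from which Ears2, the mitochondrial glutamyl enzyme, is not listed.

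Total RNA was sequenced from Ocy454 cells, an established mouse line used as a model of osteocytes, in 12 samples of 4 groups with 3 libraries each. The groups are wild type cells given vehicle, wild type cells given PF431396 (an inhibitor of the focal adhesion kinases FAK and PYK2), wild type cells given PTH (parathyroid hormone, which acts on bone cells through the receptor Pth1r), and cells labelled PDE8A KO, a knockout of a cAMP phosphodiesterase. The column headers of the deposited tables name DMSO for the vehicle and the KO libraries alike, while the sample labels name no agent for the KO group. The sources used here give no doses, times or clone numbers, and do not say whether libraries came from separate cultures, so a p-value reflects only how far libraries differ, possibly for technical reasons. The libraries held 27712551 to 35747425 estimated counts over the listed genes.

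The following 3 facts about the libraries bear on every value below. PF431396 libraries 1 and 3 were identical in all 11484 genes and were counted as 1, which leaves n = 2 in that group. Vehicle library 1 stood apart: its log2 values correlated with those of vehicle libraries 2 and 3 at r = 0.947 and 0.945 over the 11592 genes of the PDE8A KO table, against 0.992 between libraries 2 and 3 (across genes, which are not independent replicates). All 8 osteoblast markers measured were lowest in it among the vehicle libraries, at a median of 0.24 times the mean of the other two. Of the 6 osteocyte markers examined, Dmp1, Phex and Pdpn were listed and Sost, Mepe and Fgf23 were not, and no endothelial or adipocyte marker was listed. The 3 listed osteocyte markers were also lowest in vehicle library 1, at a median of 0.36 in the PDE8A KO table. So were the macrophage marker Cd68 (0.67) and the chondrocyte marker Sox9 (0.55), while the muscle marker Des was not. In the libraries labelled PDE8A KO, Pde8a itself read 2074, 2438 and 2037 against 3099.6, 2579 and 2889.6 in the vehicle libraries (log2 fold change -0.39 ± 0.14 SE, adjusted p = 0.068), so the transcript was still present and its difference did not pass the test. In RNA from a whole culture, fewer cells of a kind and less RNA per cell cannot be told apart.

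Cytosolic synthetase genes were the more abundant set. Per kilobase of the longest coding transcript, the vehicle means of the 20 cytosolic genes had a median of 1973 normalised counts in the PTH table (762 to 6374), and those of the 17 mitochondrial genes a median of 159 (44.5 to 6813). The top of the mitochondrial range was Lars2, the mitochondrial leucyl enzyme, which was highest of all 39 genes. It was the 1 mitochondrial gene above Cars1, the cysteinyl enzyme, which at 762 per kilobase was the lowest cytosolic gene. The seryl gene Sars1 (6374 per kilobase) and the glycyl gene Gars1 (5977) followed Lars2.

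Vehicle library 1 was high in the cytosolic set. In the PTH table, 16 of the 20 cytosolic genes were higher in it than in both other vehicle libraries and 4 were lowest in it, with a median ratio to the mean of the others of 1.49. The isoleucyl gene Iars1 had the widest gap, at 17546, 7051 and 7215 normalised counts in vehicle libraries 1, 2 and 3, a ratio of 2.46. The alanyl gene Aars1 followed at 39954, 19816 and 19669. By contrast, 12 of the 17 mitochondrial genes were lowest in vehicle library 1 and 4 were highest in it, with a median ratio of 0.86. Most genes had an extreme value there: of all 11775 genes, 5406 were highest and 5291 lowest in vehicle library 1. The median ratio over all genes was 1.00. The mean log2 level of the cytosolic set minus that of the mitochondrial set was 3.66, 2.99 and 2.93 in the 3 vehicle libraries of that table. The same library was highest among the vehicle libraries in 22 of the 26 measured amino acid and Atf4 stress genes, so each comparison is given below with and without it.

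**Figure D1:**
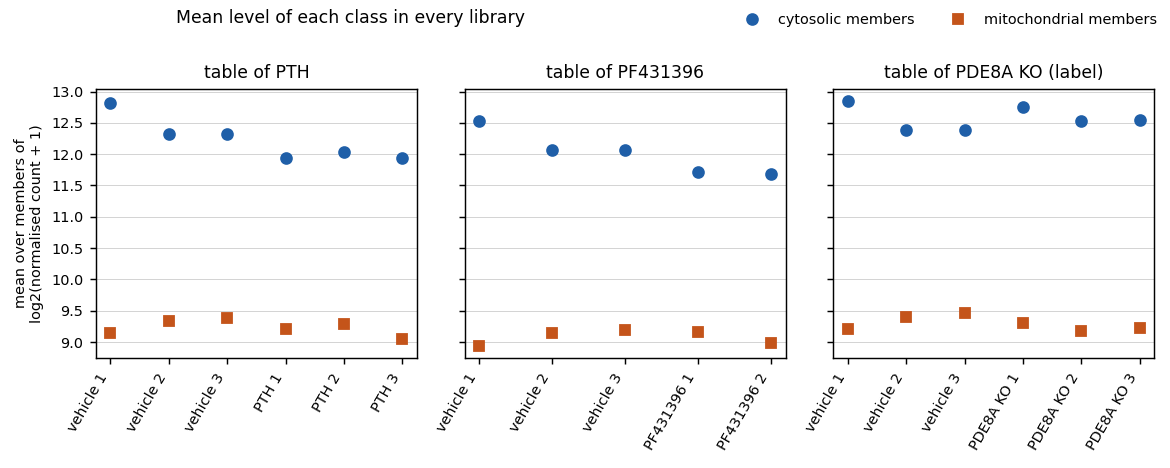
Mean over members of log2(normalised count + 1) for the cytosolic (circles) and mitochondrial (squares) synthetase genes in every library, 1 panel per deposited table. Vehicle library 1 holds the highest cytosolic and the lowest mitochondrial vehicle value in each panel, and the PTH and PF431396 libraries lie below all vehicle libraries in the cytosolic set.

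The amino acid response element is a composite site known to bind Atf4 with C/EBP factors. Its core, TGATGNAA on either strand (TTNCATCA on the opposite strand), was searched in RefSeq windows (GRCm38.p6) from 250 bases before to 50 after each gene's start. The windows that hold it are shown because cytosolic synthetase genes are known Atf4 targets. A window was matched for 29 of the 39 genes, 13 of them cytosolic, 14 mitochondrial and 2 scaffold. The core was in windows of 5 of the 29 genes (17.2%), all cytosolic, against 1219 of 27025 genes with a window (4.51%). These are the alanyl, glycyl, isoleucyl, threonyl and tyrosyl genes, shown 5′ to 3′ along the gene with the core in capitals.
Aars1 (chr8:111033840-111033869, plus strand, motif 9 bases after the start): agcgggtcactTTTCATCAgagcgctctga
Gars1 (chr6:55037960-55037989, plus strand, motif 30 bases before the start): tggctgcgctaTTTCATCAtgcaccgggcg
Iars1 (chr13:49682126-49682155, plus strand, motif 7 bases after the start): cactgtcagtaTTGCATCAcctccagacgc
Tars1 (chr15:11399655-11399684, minus strand, motif 15 bases before the start): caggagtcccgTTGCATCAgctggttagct
Yars1 (chr4:129189895-129189924, plus strand, motif 3 bases after the start): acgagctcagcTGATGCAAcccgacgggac
In Yars1 the core reads along the gene and in the others shown on the opposite strand. A match of letters is not a binding site, and no match says only that these letters are not in this window. Of the genes shown, Gars1 and Yars1 passed as lower with PTH, and Aars1, Iars1 and Tars1 did not pass. Cars1, Mars1 and Lars1 also passed as lower with PTH and had no match among the windows searched. Of the 20 cytosolic genes 13 had a window, and whether Cars1, Mars1 and Lars1 were among them is not stated here. The part of the motif in the PTH values was not tested.

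Positions are on GRCm38. Lars2 lies at chr9:123366927-123462666 (plus strand), Yars2 at chr16:16302965-16309640 (plus strand) and Cars1 at chr7:143557230-143600090 (minus strand). Yars1 lies at chr4:129189760-129219607 (plus strand), Hars2 at chr18:36783008-36792562 (plus strand) and Tars2 at chr3:95739976-95760206 (minus strand). Exons of Cars1 overlap those of the pseudogene Gm15580, on the opposite strand, over 211 bases. Exons of Aars1 overlap those of Exosc6, on the same strand, over 1326 bases. Neither Gm15580 nor Exosc6 is a listed gene.

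With PTH, 5 of the 39 genes fell and 0 rose, and all 5 were cytosolic. They are the cysteinyl (Cars1), methionyl (Mars1), tyrosyl (Yars1), leucyl (Lars1) and glycyl (Gars1) enzymes. The adjusted p-values came from limma over all 11775 genes of the table, of which 7.71% passed in either direction, 5.36% higher and 2.35% lower. At an unadjusted p below 0.05, 16 of the 39 were lower and 5 higher, where 1275 and 1592 of all 11775 genes were. With the study's further requirement of a log2 fold change of at least 1, Cars1, Yars1 and Lars1 remained, where 3.87% of all genes passed, 2.86% higher and 1.01% lower.

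Cars1 read 2811, 2446 and 2113 normalised counts in the vehicle libraries and 1082, 1280.1 and 1216 in the PTH libraries. All 3 PTH libraries were below all vehicle libraries, and the gene fell (log2 fold change -1.04 ± 0.14 SE, adjusted p = 0.0071, n = 3 and 3). Mars1, whose enzyme also charges the initiator tRNA, read 3238, 3419.7 and 3579 normalised counts in the vehicle libraries and 2091, 2221 and 2025 in the PTH libraries. Here vehicle library 1 was the lowest of the vehicle libraries, and all PTH libraries lay below it (log2 fold change -0.69 ± 0.10 SE, adjusted p = 0.0084). Exons of Mars1 overlap those of Ddit3, on the opposite strand, over 68 bases, and Ddit3, a stress transcription factor, also fell (-1.44, adjusted p = 0.018). Whether counting used strand is not given in the sources used here.

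Yars1 read 9565, 5423 and 5238 normalised counts in the vehicle libraries and 2743, 2695 and 2674 in the PTH libraries. The PTH libraries lay close together while vehicle library 1 stood well above the other two (log2 fold change -1.26 ± 0.23 SE, adjusted p = 0.021). Lars1 read 6746, 3957 and 3897 normalised counts in the vehicle libraries and 2067, 2539 and 2088 in the PTH libraries and fell with the same spread among vehicle libraries (log2 fold change -1.08 ± 0.23 SE, adjusted p = 0.035). Gars1 read 17217, 12999 and 12462 normalised counts in the vehicle libraries and 8909, 9495 and 8103 in the PTH libraries (log2 fold change -0.67 ± 0.15 SE, adjusted p = 0.039). Each of these 5 genes had no overlap between the groups, and 16.8% of all genes were likewise lower in every PTH library.

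More cytosolic genes lay lower with PTH than passed the test. Of the 20 cytosolic genes, 15 were lower in every PTH library than in every vehicle library, where 16.8% of all genes were, and 3 were higher in every library, where 19.0% were. The median log2 fold change was -0.62 for the cytosolic set, -0.07 for the mitochondrial set and -0.003 for all genes. Next in order of adjusted p came the asparaginyl gene Nars1 at -0.93 (adjusted p = 0.058) and the tryptophanyl gene Wars1 at -0.72 (adjusted p = 0.074). Nars1 read 20639.97, 11943 and 11315 normalised counts in the vehicle libraries and 7349, 8114 and 6814 in the PTH libraries, and Wars1 6462, 4236 and 3869 against 2761, 2955 and 2915. Iars1, at 17546, 7051 and 7215 normalised counts in the vehicle libraries and 3803, 4802 and 3779.8 in the PTH libraries, had a large log2 fold change of -1.23 but an SE of 0.35 and no call.

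Another 3 cytosolic genes ran the other way without a call. The histidyl gene Hars1 read 2054, 2254 and 2269 normalised counts in the vehicle libraries and 2709, 2776 and 2957 in the PTH libraries (log2 fold change 0.36 ± 0.10 SE, adjusted p = 0.081). Its first exons overlap those of Hars2 on the opposite strand over 195 bases. The glutaminyl gene Qars1, with the highest log2 fold change of the cytosolic set, read 2034, 2825 and 3159 and 3555, 3286 and 4399 (0.50, adjusted p = 0.17), and the lysyl gene Kars1 4826, 5348 and 5754 and 6403, 6394 and 6482 (0.28, adjusted p = 0.15). In all 3 the groups did not overlap, and 19.0% of all genes were likewise higher in every PTH library. Qars1 and Kars1 belong to the multisynthetase complex. Of its 10 genes among the 39, with the non-catalytic Aimp1 and Aimp2 included, 2 fell (Mars1 and Lars1), with a median of -0.33. The 12 cytosolic genes outside it, all of them enzymes, had 3 calls and a median of -0.67.

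None of the 17 mitochondrial genes passed the limma test with PTH. At an unadjusted p below 0.05, 2 were higher and 2 lower, where 1592 and 1275 of all 11775 genes were. The 17 genes ran from the arginyl gene Rars2 at -0.74 (adjusted p = 0.13) to the prolyl gene Pars2 at 0.71 (adjusted p = 0.14). Rars2 read 240.1, 333 and 319 normalised counts in the vehicle libraries and 175, 224 and 138 in the PTH libraries, with no overlap. Pars2 read 170.3, 233 and 304 and 346, 425 and 362, with every PTH library higher. A cytosolic and a mitochondrial gene for the same amino acid made 16 pairs, with Fars2 paired both with Farsa and with Farsb, and in 12 pairs the cytosolic gene had the lower log2 fold change, with no pair called in opposite directions. Cytosolic minus mitochondrial mean log2 level was 2.73, 2.74 and 2.89 in the PTH libraries, below all 3 vehicle values. Without Lars2, the mitochondrial median was -0.15.

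**Figure D2:**
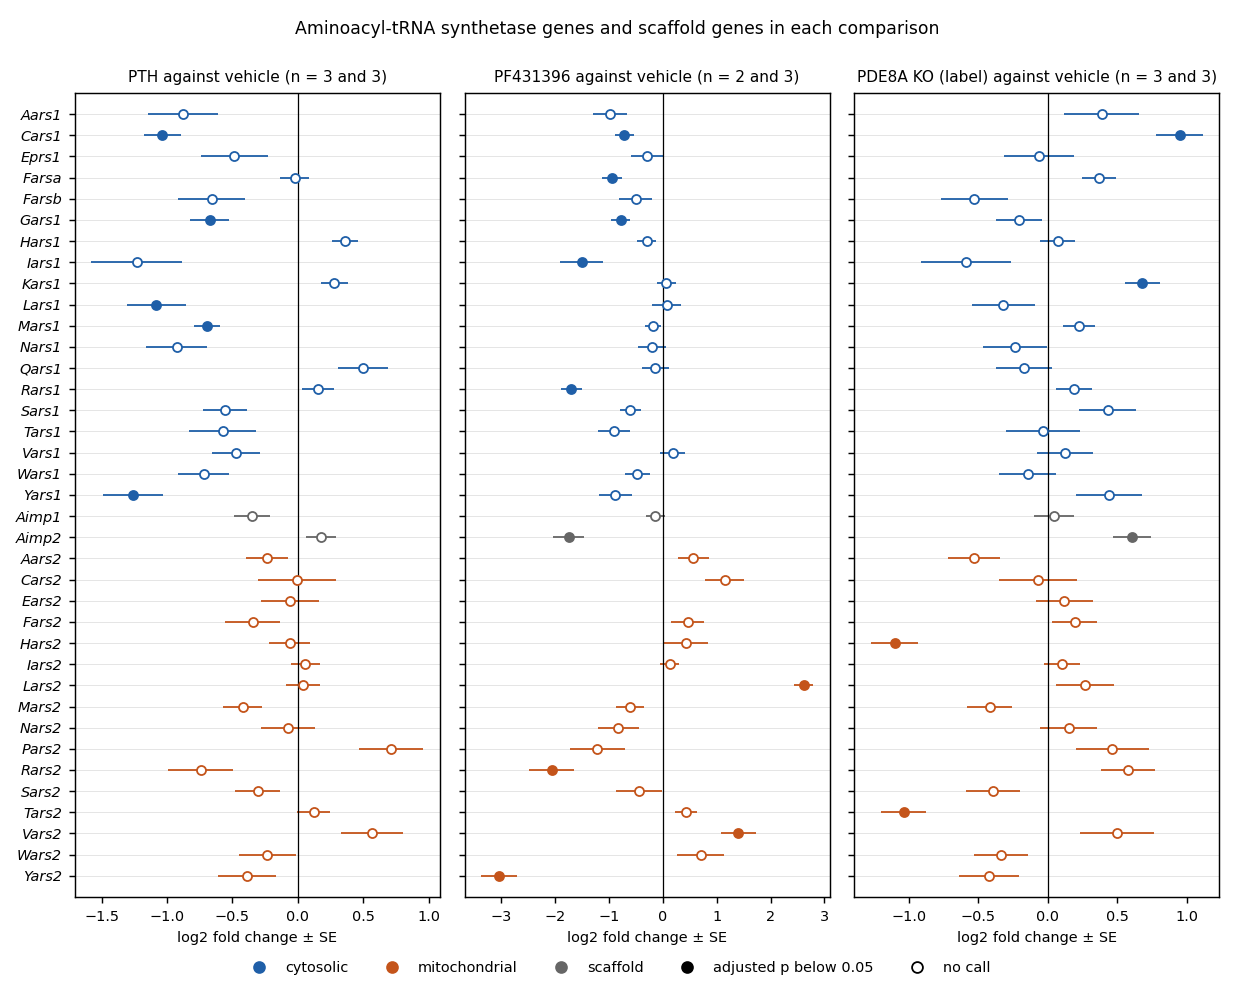
Log2 fold change (x axis, ± SE from limma) of the genes reported by name in the 3 comparisons; filled points passed an adjusted p of 0.05. With PTH the filled points are 5 cytosolic genes below 0, with PF431396 they lie on both sides, from Yars2 at -3.04 to Lars2 at 2.62, and in the libraries labelled PDE8A KO they are 3 above and 2 below 0.

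The calls with PTH depended on single libraries. Without vehicle library 1, 17 genes were lower and 3 higher, where 12.9% and 18.0% of all genes were (30.8% in either direction). The 5 genes above were among the 17, at log2 fold changes from -0.98 (Yars1) to -0.53 (Gars1). Also lower were Iars1 at -0.80, Nars1 at -0.65, Aars1 at -0.54, Wars1 at -0.49 and 5 further cytosolic genes, with 3 mitochondrial genes, among them Rars2 at -0.89 and Mars2 at -0.45. Hars1 at 0.31, Rars1 at 0.26 and Kars1 at 0.21 were higher. The cytosolic median was then -0.36, with no gene reaching a log2 fold change of 1. Leaving out vehicle library 2 left 3 lower genes, PTH library 1 left 1, PTH library 2 left 2 and PTH library 3 left 0 (10 at an unadjusted p below 0.05). The lower calls over all 11775 genes were 90, 50, 49 and 42 in the same order, against 277 with every library, so calls were lost across the whole set of genes.

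Genes of the amino acid response were mostly lower with PTH. Of 26 measured amino acid and Atf4 stress genes, 11 fell and 2 rose, with a median log2 fold change of -0.93. Over all genes 2.35% passed as lower and 5.36% as higher. Eif4ebp1, a repressor of cap-dependent initiation, read 3745, 4066 and 3900.2 normalised counts in the vehicle libraries and 2005, 1751 and 1842 in the PTH libraries (log2 fold change -1.07 ± 0.10 SE, adjusted p = 0.0016). The serine synthesis gene Psat1 (-0.84, adjusted p = 0.0025) and the proline synthesis gene Aldh18a1 (-1.01, adjusted p = 0.003) fell, and Cebpb, a C/EBP factor, rose (2.02, adjusted p = 0.0027). Atf4 itself read 21388, 14789 and 14469 against 11410.3, 11697 and 9704 (log2 fold change -0.61 ± 0.17 SE, adjusted p = 0.084), and the asparagine synthetase gene Asns 17187, 7240.3 and 6794 against 3613, 4064 and 3385 (log2 fold change -1.36 ± 0.34 SE, adjusted p = 0.059). Neither passed, and without vehicle library 1 both did, at -0.42 and -0.93. Without that library the list had 20 lower and 3 higher genes, where 12.9% and 18.0% of all genes were.

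Of 10 measured amino acid transporter genes, 3 fell with PTH and 1 rose, where 2.35% and 5.36% of all genes did. The neutral amino acid carriers Slc1a4 (-1.59, adjusted p = 0.011) and Slc7a5 (-1.19, adjusted p = 0.043) and the glycine carrier Slc6a9 (-1.48, adjusted p = 0.03) fell. Slc43a2, a carrier of large neutral amino acids, read 62.4, 279 and 225 normalised counts in the vehicle libraries and 2484, 2432 and 2534 in the PTH libraries and rose (3.97, adjusted p = 0.0063). The lists of eIF2 kinases and initiation (14 measured), cytosolic elongation factors (8), mitochondrial translation factors (13), synthetase relatives (8) and tRNA maturation and export (21) had 0 calls in limma, with 4, 4, 4, 3 and 5 genes at an unadjusted p below 0.05. At that threshold 1592 of all 11775 genes were higher and 1275 lower. Among cell type markers, 1 of the 3 listed osteocyte markers rose, Pdpn (2.91, adjusted p = 0.0079), while Dmp1 was at -1.17 (adjusted p = 0.27) and Phex at -0.24 (adjusted p = 0.79). The chondrocyte marker Sox9 rose (1.33, adjusted p = 0.028), and 0 of 8 osteoblast markers passed (1 at an unadjusted p below 0.05). The summed level of the 8 was 95263, 360835 and 426354 normalised counts with vehicle and 371043 to 432789.9 with PTH. Their part in the synthetase values was not tested.

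With PF431396, 8 genes fell and 2 rose, with n = 2 against 3. This comparison moved many genes: 37.1% of the 11484 tested passed, 16.9% higher and 20.3% lower, and 10 of 38 called is a share under that background. The genes that changed were of both compartments. The 5 cytosolic genes that fell were Rars1, Farsa, Gars1, Cars1 and Iars1, and no cytosolic gene rose (0 at an unadjusted p below 0.05). Of the 16 mitochondrial genes, Lars2 and Vars2 rose and Yars2 and Rars2 fell. The scaffold gene Aimp2 also fell. The study's criterion left 2 higher and 5 lower members, where 26.2% of all genes passed, 10.9% higher and 15.2% lower.

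Lars2 read 20877, 26302 and 19183 normalised counts in the vehicle libraries and 130501 and 138394 in the PF431396 libraries. Both treated libraries were far above every vehicle library (log2 fold change 2.62 ± 0.17 SE, adjusted p = 0.0025). Its share of a library's estimated counts was 0.368% to 0.387% with PF431396 and 0.0771% to 0.105% with vehicle. Transcripts encoded in mitochondrial DNA made up 11.8% to 13.0% of counts with PF431396 and 3.89% to 5.19% with vehicle. A stretch of 72 bases near the 3′ end of the Lars2 transcript matched Gm15564, a non-coding gene not listed in the tables, at 98.6% identity, so reads from it could be counted as Lars2. The part of either in the rise of Lars2 was not tested.

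Vars2, the mitochondrial valyl gene, read 295, 566 and 506 normalised counts in the vehicle libraries and 1175 and 1154 in the PF431396 libraries (log2 fold change 1.41 ± 0.32 SE, adjusted p = 0.018). Vehicle library 1 was the lowest of the vehicle libraries here. Yars2, the mitochondrial tyrosyl gene, had the deepest fall of all members, from 974, 570.4 and 631 to 79.2 and 90.4 (log2 fold change -3.04 ± 0.33 SE, adjusted p = 0.0029). Rars2 read 212, 299 and 286 normalised counts in the vehicle libraries and 87.3 and 44.1 in the PF431396 libraries (log2 fold change -2.07 ± 0.42 SE, adjusted p = 0.013), low counts with the widest relative gap between the treated libraries among the called genes. Vars2 did not pass when libraries were scaled to equal totals, nor without PF431396 library 1 or 2 (adjusted p up to 0.093).

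Rars1, the cytosolic arginyl gene of the multisynthetase complex, read 3357, 2766 and 2716 normalised counts in the vehicle libraries and 998 and 816 in the PF431396 libraries (log2 fold change -1.70 ± 0.19 SE, adjusted p = 0.003). Aimp2, which anchors that complex, read 858, 1023 and 986 normalised counts in the vehicle libraries and 367 and 219 in the PF431396 libraries (log2 fold change -1.75 ± 0.29 SE, adjusted p = 0.0067). Exons of Aimp2 overlap those of the eIF2 kinase gene Eif2ak1, on the opposite strand, over 487 bases, and Eif2ak1 fell too (-1.02, adjusted p = 0.0095). Eef1e1, the third scaffold protein, read 1267, 1244 and 1168 normalised counts in the vehicle libraries and 318 and 269.96 in the PF431396 libraries and fell (log2 fold change -2.06 ± 0.21 SE, adjusted p = 0.0026). Aimp1 did not pass (-0.14, adjusted p = 0.58).

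Farsa, the catalytic subunit of the phenylalanyl enzyme, read 1835, 1565 and 1649 normalised counts in the vehicle libraries and 936 and 819 in the PF431396 libraries (log2 fold change -0.94 ± 0.18 SE, adjusted p = 0.011). Its partner subunit Farsb read 3481, 1827 and 1953 and 1786 and 1502 and had no call (-0.50, adjusted p = 0.24). Gars1 read 14176, 10917 and 10474 normalised counts in the vehicle libraries and 6815 and 6837 in the PF431396 libraries (log2 fold change -0.78 ± 0.17 SE, adjusted p = 0.017). Iars1 read 14679, 6016 and 6161 with vehicle and 2863 and 2875 with PF431396 (log2 fold change -1.51 ± 0.39 SE, adjusted p = 0.027), and part of its transcript matches the pseudogene Gm4849 at 96.0% identity. Cars1 fell by a smaller amount (-0.71, adjusted p = 0.026).

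**Figure D3:**
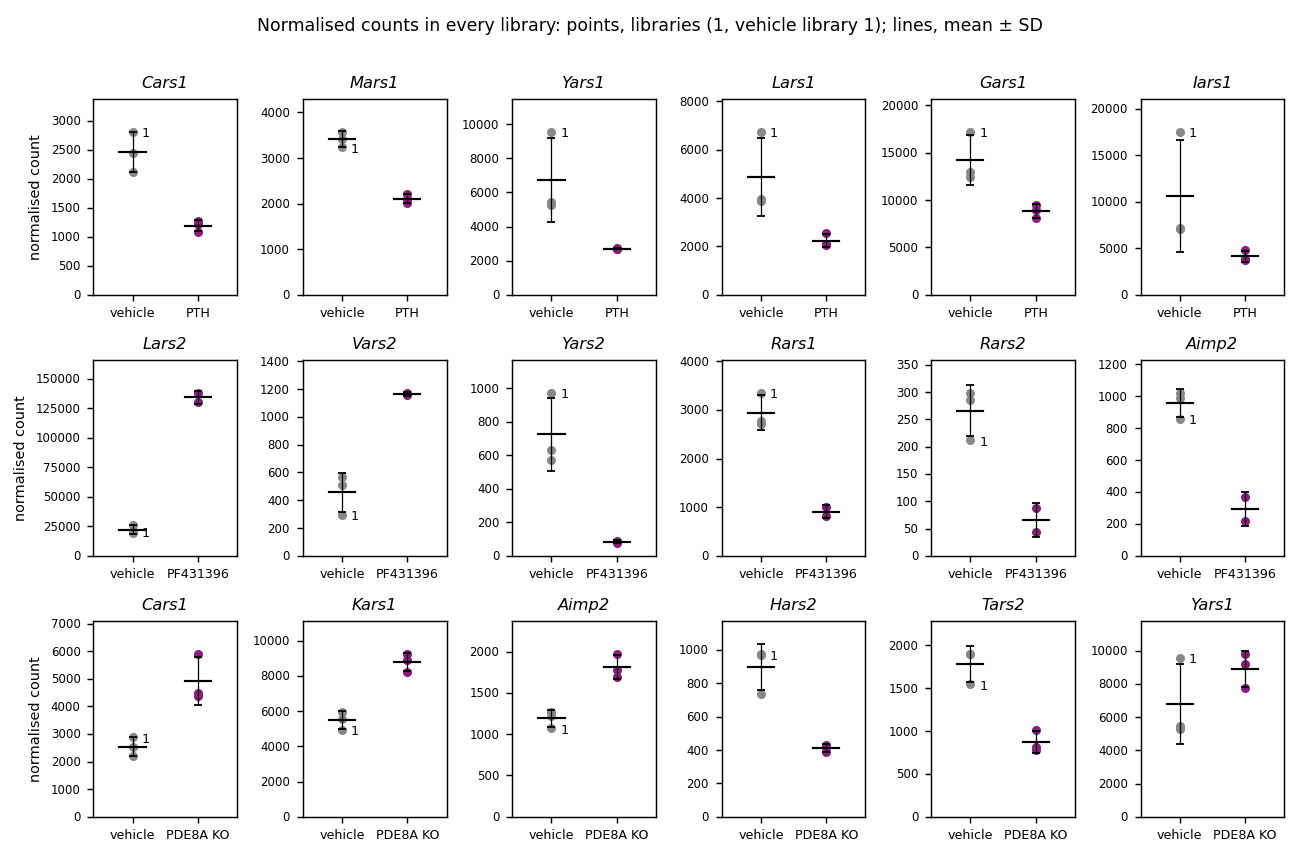
Normalised counts of 6 genes per comparison in every library (points; vehicle library 1 is marked 1), with the mean and SD as lines, on axes that start at 0. Top row, PTH; middle row, PF431396 with 2 distinct libraries; bottom row, libraries labelled PDE8A KO. Lars2 with PF431396 lies at 130501 and 138394, far above vehicle, and the KO libraries for Yars1 overlap vehicle library 1 but not the other vehicle libraries.

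The compartments had medians of -0.49 (cytosolic) and 0.27 (mitochondrial) with PF431396, and -0.02 over all genes. Under scaling to the same total the median of all genes moved to -0.55, the cytosolic median to -1.02 and the mitochondrial median, changing sign, to -0.26, and the calls became 1 higher and 20 lower. In all genes that scaling turned 1938 higher and 2327 lower calls into 750 and 4514. Of the 20 cytosolic genes, 13 were lower in both PF431396 libraries than in every vehicle library, where 34.0% of all genes were, and 1 was higher in both, where 31.8% of all genes were. Among mitochondrial genes 5 were higher and 5 lower. In 11 of the 16 pairs the cytosolic gene had the lower log2 fold change. Cytosolic minus mitochondrial mean log2 level was 2.55 and 2.70 in the treated libraries and 3.59, 2.92 and 2.88 with vehicle. Without Lars2 it was 3.08 and 3.23 in the treated libraries and 3.96, 3.29 and 3.21 with vehicle, so the groups overlapped. The mitochondrial median without Lars2 was 0.13.

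Without vehicle library 1, 12 genes were lower and 5 higher with PF431396, where 25.2% and 23.9% of all genes were (49.1% in either direction). Aars1 at -0.66, Tars1 at -0.61, Yars1 at -0.61 and Sars1 at -0.43 joined the lower genes, and 3 genes joined the higher, among them Lars1 at 0.32 and Cars2 at 0.84. Leaving out PF431396 library 1 gave a cytosolic median of -0.55 and a mitochondrial median of 0.03, and leaving out library 2 gave -0.42 and 0.20. Lars2, Yars2, Rars1 and Aimp2 passed whichever single library was left out. Cars1 did not pass without PF431396 library 1 or 2 or vehicle library 2, nor with the replicate block (adjusted p up to 0.10). Gars1 and Iars1 did not pass without PF431396 library 1 or 2, nor Farsa and Rars2 without library 2. The lone remaining library was then assumed to vary like the vehicle group.

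Atf4 and translation initiation genes were lower with PF431396. Over all genes 16.9% passed as higher and 20.3% as lower. The list counts in this and the next paragraph stand beside those shares. Atf4 read 17588, 12403 and 12145 normalised counts in the vehicle libraries and 2707 and 2318 in the PF431396 libraries and fell (log2 fold change -2.47 ± 0.21 SE, adjusted p = 0.0025). Its targets Chac1 (-4.12, adjusted p = 0.0025), Ddit3 (-3.29, adjusted p = 0.0025) and Trib3 (-3.13, adjusted p = 0.0054) fell among 8 lower and 2 higher of 25 stress genes, and Vldlr rose (0.83, adjusted p = 0.0068). Asns had no call (-1.10, adjusted p = 0.068). Of the 10 transporter genes 3 fell, led by Slc38a2 (-1.89, adjusted p = 0.0063), with Slc3a2 and Slc1a4, and 0 rose in limma (0 at an unadjusted p below 0.05). Of 14 initiation genes 8 fell, among them the eIF2B subunit gene Eif2b4 (-1.81, adjusted p = 0.0036) and the eIF2 subunit gene Eif2s1 (-1.67, adjusted p = 0.0038), and Impact, an inhibitor of the amino acid sensing kinase, rose (0.87, adjusted p = 0.0093).

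Of 8 elongation genes 5 rose, including Eef1b2 (1.11, adjusted p = 0.0049) and Eif5a (0.74, adjusted p = 0.0073), and the kinase gene Eef2k and Eef1e1 fell. Of 19 tRNA maturation and export genes 10 fell and 1 rose. Among them Trmt10c, a subunit of the mitochondrial ribonuclease P, fell (-2.12, adjusted p = 0.0042), as did Trnt1, which adds the CCA end that synthetases charge (-1.47, adjusted p = 0.0077). Of 13 mitochondrial translation genes 3 fell, led by Mtfmt, which formylates the initiator tRNA (-2.05, adjusted p = 0.0053), and 1 rose. Among 8 relatives, Prorsd1 (-2.99, adjusted p = 0.0038) and Eef1e1 fell and Dtd1, which removes D-amino acids from tRNA, rose (0.94, adjusted p = 0.044). Cd68, the 1 macrophage marker of 5 that was listed, rose from 177, 251 and 278 to 1867 and 1013 (2.57, adjusted p = 0.0046), and 1 of 8 osteoblast markers, Bglap, rose (1.72, adjusted p = 0.015). The median log2 fold change of the 8 was 1.19, and 5 of them were higher in both PF431396 libraries than in every vehicle library. Their summed level was 77928, 301328 and 356288 normalised counts with vehicle and 493738 and 447959.8 with PF431396. None of the 3 osteocyte markers passed in limma (1 at an unadjusted p below 0.05). The part of other cells in the synthetase values was not tested.

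In the libraries labelled PDE8A KO, 3 genes rose and 2 fell, where 27.8% of the 11592 genes passed, 14.6% higher and 13.2% lower. The genes that rose were the cytosolic Cars1 and Kars1 and the scaffold Aimp2. Those that fell were the mitochondrial histidyl and threonyl genes Hars2 and Tars2, the 2 that also met the study's criterion (11.5% of all genes did, 6.32% higher and 5.13% lower). A share of 5 in 39 lies under that background.

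Cars1 read 2882, 2539 and 2196 normalised counts in the vehicle libraries and 5913, 4483 and 4369.6 in the PDE8A KO libraries, with all KO libraries higher (log2 fold change 0.95 ± 0.17 SE, adjusted p = 0.0065). Kars1, the lysyl gene, read 4941, 5544 and 5969 normalised counts in the vehicle libraries and 9263, 8205 and 8878 in the PDE8A KO libraries (log2 fold change 0.68 ± 0.13 SE, adjusted p = 0.0073). Aimp2 read 1074, 1273 and 1226 normalised counts in the vehicle libraries and 1978, 1772 and 1692 in the PDE8A KO libraries (log2 fold change 0.61 ± 0.14 SE, adjusted p = 0.015), and Eif2ak1, which shares exon bases with it, rose as well (0.43, adjusted p = 0.028). None of these 3 genes had an overlap between groups, but 25.4% of all genes were likewise higher in every KO library. The call of Aimp2 was lost without KO library 1 or 2 (adjusted p up to 0.063).

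Hars2 read 970.3, 736 and 978 normalised counts in the vehicle libraries and 419.98, 429.96 and 387 in the PDE8A KO libraries (log2 fold change -1.10 ± 0.17 SE, adjusted p = 0.0038). Hars1, which overlaps its first exons, read 2130.5, 2368 and 2385 and 2590.2, 2364 and 2274 and had no call (0.07, adjusted p = 0.69). Tars2 read 1545, 1898 and 1904 normalised counts in the vehicle libraries and 1016, 812 and 780.4 in the PDE8A KO libraries (log2 fold change -1.04 ± 0.16 SE, adjusted p = 0.004), and its cytosolic partner Tars1 had no call (-0.04, adjusted p = 0.93). Hars2 and Tars2 passed whichever single library was left out. Next in order were Rars2 at 0.58 (adjusted p = 0.06), Farsa at 0.37 (adjusted p = 0.061) and the mitochondrial alanyl gene Aars2 at -0.53 (adjusted p = 0.068). Rars2 read 259.8, 365 and 349 against 502, 445 and 496, Farsa 2363, 1999.98 and 2109 against 2881, 2645 and 2804 and Aars2 600.3, 482 and 504 against 400.4, 308 and 390.2, each without overlap. Over all genes, 25.4% were higher and 24.4% lower in every KO library than in every vehicle library.

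The cytosolic set showed a median of 0.02, the mitochondrial set of -0.07 and all genes of -0.002. Of the 20 cytosolic genes 4 were higher in every KO library and 3 lower, against 25.4% and 24.4% of all genes. The lowest was Iars1 at -0.59 (adjusted p = 0.21), where vehicle library 1 alone was high (18138, 7382 and 7557 against 6974, 6114 and 6956). The cytosolic gene had the lower log2 fold change in 6 of the 16 pairs. Cytosolic minus mitochondrial mean log2 level was 3.45, 3.35 and 3.33 in the KO libraries, between vehicle library 1 and the other 2 (3.65, 2.97 and 2.92).

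Without vehicle library 1, 9 genes were higher and 3 lower, where 23.2% and 22.2% of all genes were (45.4% in either direction). Yars1 at 0.72, Aars1 at 0.72, Sars1 at 0.61, Farsa at 0.43 and Rars1 at 0.29 joined the cytosolic genes that were higher, with Rars2 at 0.43, and Mars2 at -0.45 joined the lower. Yars1 read 9564, 5493 and 5308 with vehicle and 9827, 9194 and 7723 in the KO libraries, which overlap vehicle library 1 and lie above the others. The cytosolic median was then 0.22 and the mitochondrial median -0.19.

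**Figure D4:**
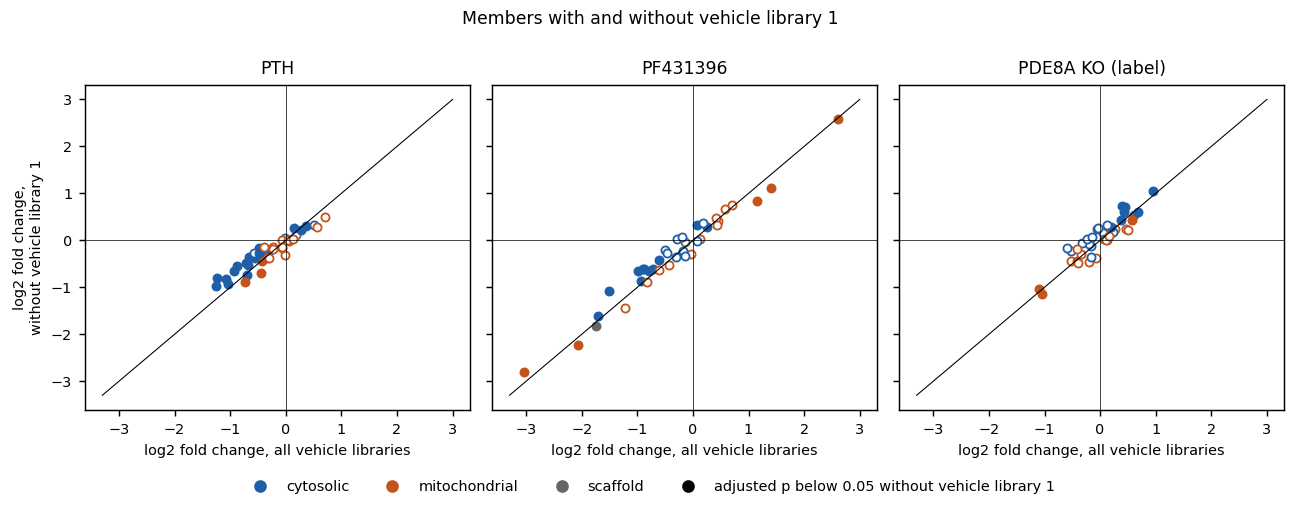
Log2 fold change of each gene with all vehicle libraries (x axis) and without vehicle library 1 (y axis); the diagonal marks equal values, and filled points passed an adjusted p of 0.05 without that library. Most cytosolic points lie above the diagonal, and with PTH 14 filled cytosolic points stay below 0.

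Of 26 stress genes 3 rose and 4 fell, where 14.6% of all genes passed as higher and 13.2% as lower. The other list counts of this paragraph stand beside the same shares. The serine synthesis gene Psph rose (1.11, adjusted p = 0.012) and Pycr1, of proline synthesis, fell (-1.27, adjusted p = 0.0015). Atf4 read 22184, 15534 and 15206 and 20883, 17257 and 13682 (-0.03, adjusted p = 0.93), and Asns -0.51 (adjusted p = 0.28). Without vehicle library 1 the stress list had 11 higher and 4 lower genes, where 23.2% and 22.2% of all genes were. Slc1a4 was the 1 of 11 transporters that rose (0.93, adjusted p = 0.026). Of 14 initiation genes 2 rose, Eif2ak1 and Eif2b3, and Impact fell from 1923, 1917 and 1789.5 to 177, 114 and 204 (-3.54, adjusted p = 1.5e-04). Eef1b2 (-0.96, adjusted p = 0.0058), Gfm1 (-0.62, adjusted p = 0.016) and Sepsecs, which makes selenocysteinyl-tRNA (-0.69, adjusted p = 0.016), each fell as the 1 call of the elongation, mitochondrial translation and relatives lists, and Pop7 rose (1.31, adjusted p = 0.0038) as the 1 call of 21 tRNA maturation genes. Osteoblast markers were also lower: 5 of 8 fell, Ibsp most (-6.42, adjusted p = 5.1e-04), and their summed level was 149489 to 192843 against 98795 to 447839 with vehicle. All 3 listed osteocyte markers changed: Phex (-3.86, adjusted p = 8.7e-04) and Dmp1 (-2.84, adjusted p = 0.012) fell and Pdpn rose (2.45, adjusted p = 0.005). The chondrocyte marker Sox9 (1.33, adjusted p = 0.019) and the muscle marker Des (1.24, adjusted p = 0.034) rose, each the 1 listed of 4. Their part in the synthetase values was not tested.

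Side by side, and sharing the same vehicle libraries, Cars1 had log2 fold changes of -1.04 with PTH, -0.71 with PF431396 and 0.95 in the KO libraries, each called, the PF431396 call being lost in the settings named above. Gars1 had -0.67, -0.78 and -0.21, the last without a call. Aimp2 had 0.18 (no call), -1.75 and 0.61. No test was made across the tables, which were scaled separately.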

How the data were processed

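Values came from 3 tables that the authors deposited, each with 1 group beside the vehicle libraries. Per the submitters' processing notes, FastQC 0.11.5, Salmon and DESeq2 were used with GRCm38, and genes were called at an adjusted p below 0.05 with a log2 fold change of at least 1. The deposited per-library signal is a normalised estimated count: each library's values equal whole counts, within 0.02, over a common size factor. Deposited log2 fold changes and adjusted p-values are the authors' own and are used only where named. Rows naming no gene (8 for PTH, 6 for PF431396 and 8 for KO, at most 0.0249% of a library) and 1036792 empty rows were left out.

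Here each table was fitted by itself with limma 3.58.1 in R 4.3.3 (trend, robust, statmod 1.5.0) on log2(value + 1), which understates the fold of low genes, with Benjamini-Hochberg adjustment over all its genes. Tables were not tested against each other, since the same vehicle library differed between them with an SD over genes of up to 0.12 log2 units. The counts behind each library limit counting error only. Tables were read with Python 3.11.15 and pandas 2.3.3, and shared stretches were found with BLAST+ 2.17.0. Gene models were GENCODE vM21 and promoter windows RefSeq. The fit was tested on simulated data.

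Library values are given for the 8 members with the smallest adjusted p in each comparison and the highest and lowest per compartment, with called genes and up to 4 genes per list added. The members and lists were chosen with earlier results of these data known. The sources used here do not say whether replicate numbers pair libraries. Across genes, deviations from the group means correlated at most at 0.099 between libraries of the same number. With so few libraries per group this cannot exclude pairing. Alternatives covered scaling, pseudocount, filter, variance model, block, and leaving out each library. Some members enter the counts and medians but are not reported here by name, and not every promoter match is printed.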

Additional observations from a re-analysis of the deposited data

How the results depend on the processing

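No called member changed sign under any alternative run, while the mitochondrial medians with PF431396 and in the KO libraries did, and the cytosolic KO median, 0.02, was -0.065 without vehicle library 2 and -0.048 without KO library 1. Leaving out 1 library gave 0 to 3 higher and 0 to 17 lower members with PTH, where 218 to 2115 and 42 to 1515 of all 11775 genes were. Leaving out 1 vehicle library gave 2 to 5 higher and 9 to 12 lower with PF431396, where 1308 to 2749 and 1512 to 2891 of all 11484 genes were. In the PDE8A KO comparison, leaving out 1 library gave 2 to 9 higher, where 774 to 2694 of all 11592 genes were. The cytosolic median with PTH ran from -0.71 to -0.36 and the mitochondrial one from -0.20 to -0.032; the mitochondrial medians were 0.031 to 0.33 with PF431396 and -0.19 to 0.13 in KO. Pde8a in KO ran from -0.47 to -0.33 and passed without vehicle library 1. Scaling to the same total gave 8 lower members with PTH, where 501 of all genes were lower. With PF431396 it gave 1 higher and 20 lower, where 750 and 4514 of all genes were, a cytosolic median of -1.02 and a mitochondrial one of -0.26. Keeping the identical PF431396 libraries apart gave 6 higher and 14 lower, where 2821 and 3126 of all genes were. The study's criterion left 3 lower with PTH, 5 lower with PF431396 and 0 higher in KO (5 at an unadjusted p below 0.05 in limma, with no fold limit). With the replicate number as a block, or with no trend and no robust variance, 3 members were lower with PTH, where 128 and 256 of all genes were. Whether the numbers pair the libraries is not known. The cause of these changes was not tested. Count models in edgeR and DESeq2 were not run, since the deposited values are normalised. With 2 distinct PF431396 libraries, small differences were not detectable.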

Other observations

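In the authors' deposited table for PTH, 1 member was higher and 10 were lower at an adjusted p below 0.05, all 10 cytosolic. The authors' deposited table for PF431396 had 7 higher and 15 lower, and the authors' deposited table for the KO libraries 5 higher and 3 lower. How many of all genes passed in the authors' deposited tables was not counted here, so these member counts stand without a background share. All members called here (5 with PTH, 10 with PF431396 and 5 in the KO libraries) were also called in the authors' deposited table of the same comparison.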
